A study of Mus musculus with 12 samples.

Results

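The genes measured here are Myc and 44 genes whose proteins work in the nucleolus or in ribosome assembly, taken as a listed set of 45 symbols. All 45 were found among the 24454 gene IDs of the expression table, and all 45 had at least 1 CPM (reads of the gene per 1000000 reads of the library) in at least 2 of the 12 libraries, the filter that left 12502 genes for testing. Their levels ran from 11.4 CPM (Fbl) to 1775 CPM (Ncl). The libraries were RNA-seq of total RNA from 3 mouse mammary tumour cell lines, all labelled mesenchymal. PyMT-1099 LT and Py2T LT carry the strain label MMTV-PyMT and MT∆Ecad the label MMTV-Neu, names of mice in which a mammary tumour virus promoter drives an oncogene (polyoma middle T or Neu) in the mammary epithelium. Each line received either an siRNA against Nrf2 (siNrf2) or a non-targeting siRNA (siCtl), both from Dharmacon, for 48 hours, and each of the 6 groups has 2 replicates, which the series text calls biological. MT∆Ecad is a line in which E-cadherin, the epithelial adhesion protein encoded by Cdh1, was deleted, and its siCtl and siNrf2 libraries both carry that deletion. Each oncogene and strain is tied to its lines, so that a difference between MT∆Ecad and the others cannot be told apart from a difference of oncogene or strain or from the deletion, and loss of Nrf2 cannot be told apart from other effects of the same siRNA. A CPM value is a share of a library, so that fewer cells of a type and less RNA per cell cannot be told apart either.

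Nrf2, encoded by Nfe2l2, is the transcription factor that drives antioxidant and detoxifying enzymes. Myc is a transcription factor that pairs with Max, binds the E-box CACGTG and raises many genes of cell growth, among them those that make ribosomes. RNA polymerase I copies the ribosomal DNA into a long precursor in the nucleolus. Small nucleolar ribonucleoproteins (snoRNPs) modify that precursor, the small subunit processome folds and cleaves it, and further factors build the 40S and 60S subunits and carry them towards export. Fast-growing tumour cells, mammary ones included, are known for large nucleoli and high output of these factors.

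An E-box in the window from 250 bases before to 50 after the start site is a feature that 12 of these genes share, and a few windows show where it lies. Sequences are from RefSeq on build GRCm38.p6, written 5′ to 3′ on the gene's strand, with the E-box in capitals.
Mybbp1a (chr11:72441355-72441376, plus strand): gtcttctgagccCACGTGtttg
Pes1 (chr11:3963965-3963994, plus strand): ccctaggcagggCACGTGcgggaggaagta
Wdr43 (chr17:71616220-71616249, plus strand): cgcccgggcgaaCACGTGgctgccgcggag
Ltv1 (chr10:13193092-13193121, minus strand): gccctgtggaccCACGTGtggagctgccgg
Utp18 (chr11:93885769-93885798, minus strand): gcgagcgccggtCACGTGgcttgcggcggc
Nop2 (chr6:125131811-125131840, plus strand): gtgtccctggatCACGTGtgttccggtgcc
CACGTG reads the same on both strands. It was found in the window of 12 of the 39 members with a promoter entry (30.8%), against 7.15% of all 32851 windows in the table and 11.8% of the 9925 tested genes with an entry. The 12 members are Rrn3, Mybbp1a, Utp4, Utp18, Utp20, Wdr43, Ltv1, Tsr1, Pno1, Pes1, Nop2 and Mdn1, and Rrn3 holds it at 2 places. Of these 13 E-boxes, 9 began within the 50 bases after the start site, as in Pes1 (position 3), Wdr43 (18), Ltv1 (29) and Mybbp1a (41). Of all 2349 windows that hold an E-box, 15.2% held one wholly after the start site. That share counts windows and not E-boxes, over genes tested or not, so it is not a like measure for the members' 9 of 13. In Utp18 and Nop2 the first base lay at −20 and −60. Myc, Npm1, Fbl, Rrp12, Bop1 and Rrs1 have no entry. A match is a description of the letters and not evidence that Myc binds there.

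Both siNrf2 libraries of each line held far less of the targeted transcript: the log2 fold change of Nfe2l2 was −1.91 in PyMT-1099 LT (limma adjusted p 0.000691), −1.86 in Py2T LT (0.000897) and −1.97 in MT∆Ecad (9.67e-05). Library depth was 27088970 to 37070635 reads. The labelled mesenchymal state fitted its markers in part: Vim was at 1489 CPM or more and Fn1 at 5248 CPM or more in every library, yet Twist1 and Snai2 were at 0 in all 4 PyMT-1099 LT libraries, and keratins Krt8 and Krt18 were present in all lines. In MT∆Ecad, Cdh1 (E-cadherin) was at 0.32 to 0.64 CPM, against 47.8 to 62.1 CPM in PyMT-1099 LT and 12.5 to 18.1 CPM in Py2T LT. Py2T LT also held the epithelial markers Cldn4 (130 to 234 CPM) and Epcam (16.7 to 30.8 CPM). Immune markers summed to at most 6.25 CPM in any library, with Ptprc and Cd3e at or near 0. In MT∆Ecad the mesenchymal sum rose with siNrf2 from 10629 and 11119 to between 14773 and 15578 CPM (Fn1 alone was at 5248 and 5690, then at 8807 and 9687 CPM), the epithelial sum (3 of 8 markers at 1 CPM or more) lay at 1125 to 1230 and then 1285 to 1293 CPM, and the endothelial sum was at most 0.221 CPM. Within the mesenchymal sum of MT∆Ecad, Zeb2 went from 69.8 and 47.3 CPM with siCtl to 44.1 and 38.6 CPM with siNrf2. Vim, Cdh2, Zeb1 and Col1a1 were higher with siNrf2 there. Within the epithelial sum of MT∆Ecad, Krt14 went from 142 and 123 CPM with siCtl to 47.4 and 50.1 CPM with siNrf2, while Krt8 and Krt18 were higher with siNrf2. PyMT-1099 LT held 1 of the 4 endothelial markers, Cdh5, at 88.0 to 124 CPM. Py2T LT held Cdh5 too, at 4.24 to 6.23 CPM. The part of these markers in the results that follow was not tested. P-values measure only the spread between replicate libraries, pooled over the 6 groups. Those of 1 line therefore draw on the spread in the other lines too.

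In MT∆Ecad, 25 of the 45 members, all of them genes of the nucleolus or of ribosome assembly, fell after siNrf2 and 0 rose at a limma adjusted p under 0.05, beside 8.42% lower and 8.89% higher among all tested genes. The members' median log2 fold change was −0.57, a difference on the log2(CPM + 1) scale, while the median of all tested genes was 0. Both siNrf2 libraries were below both siCtl libraries for 44 members, beside 32.8% of all tested genes, and the exception was Polr1a, with both above. The members together took 0.931% and 0.762% of the reads of the siCtl libraries and 0.626% and 0.514% of those of the siNrf2 libraries.

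**Figure D1:**
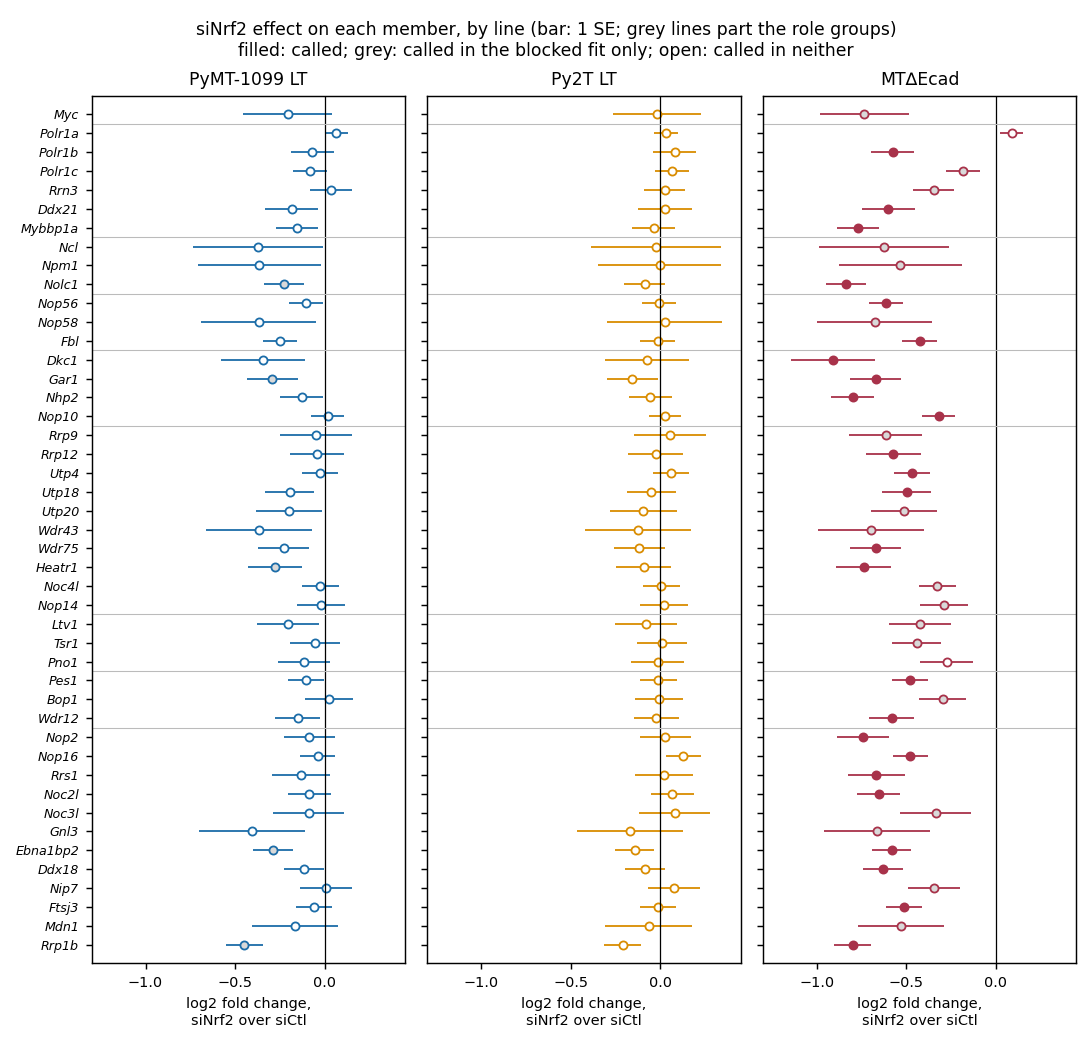
The log2 fold change of siNrf2 over siCtl on the log2(CPM + 1) scale is plotted for each of the 45 members in each line (points, with bars of 1 SE), and grey lines part the role groups. In MT∆Ecad 44 of 45 points lie below 0, beside 48.2% of all tested genes, and 25 are filled as called. In Py2T LT the points lie on both sides of 0 and none is filled.

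Replicate numbers were taken to pair the libraries of a line, and a fit with the number within each line as a block called 43 of 45 members lower in MT∆Ecad, beside 21.2% of all tested genes, and 0 higher. The exceptions were Polr1a and Pno1 (blocked adjusted p 0.122 and 0.0752). The count rested on 2 libraries: without siCtl replicate 1 of MT∆Ecad, or without siNrf2 replicate 2 of it, 5 members were called. Mybbp1a, Nolc1, Nop56, Nhp2 and Rrp1b were the 5 called in each of the 12 fits that left out 1 library. Beside those 2 libraries, Nop10 was not called without 6 others, Utp18 without 7, Rrp12 without 2 (both siCtl libraries of PyMT-1099 LT), Fbl and Dkc1 without 1 (siNrf2 replicate 1 of MT∆Ecad) and Pes1 without 1 (siCtl replicate 2 of MT∆Ecad). For Nop10 the 6 were the siCtl libraries of the other lines, siCtl replicate 2 and siNrf2 replicate 1 of MT∆Ecad, and for Utp18 the 7 were all 4 libraries of PyMT-1099 LT, both siCtl libraries of Py2T LT and siCtl replicate 2 of MT∆Ecad.

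Myc itself was measured at 140 and 94.4 CPM in the MT∆Ecad siCtl libraries (replicates 1 and 2) and at 90.8 and 51.9 CPM in the siNrf2 libraries. The groups did not overlap, but the lower siCtl library lay close to the higher siNrf2 library. The siNrf2 mean was 61.0% of the siCtl mean, and the log2 fold change was −0.73 (SE 0.25, 95% interval −1.29 to −0.18). It did not pass without the block (limma adjusted p 0.0734) and did with it (0.000397), and DESeq2 on the recovered reads gave 0.0483 and edgeR 0.0983. Without siNrf2 replicate 1 the limma adjusted p was 0.0163, without siNrf2 replicate 2 it was 0.456 and without siCtl replicate 1 it was 0.434. In PyMT-1099 LT Myc stood at 223 and 214 CPM in siCtl and 206 and 174 CPM in siNrf2, again without overlap and with no call (−0.21, limma adjusted p 0.905, blocked 0.110). Py2T LT had the highest Myc, at 304 and 291 CPM in siCtl and 308 and 280 CPM in siNrf2, 2 groups that overlapped (−0.02, 95% interval −0.57 to 0.54).

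**Figure D2:**
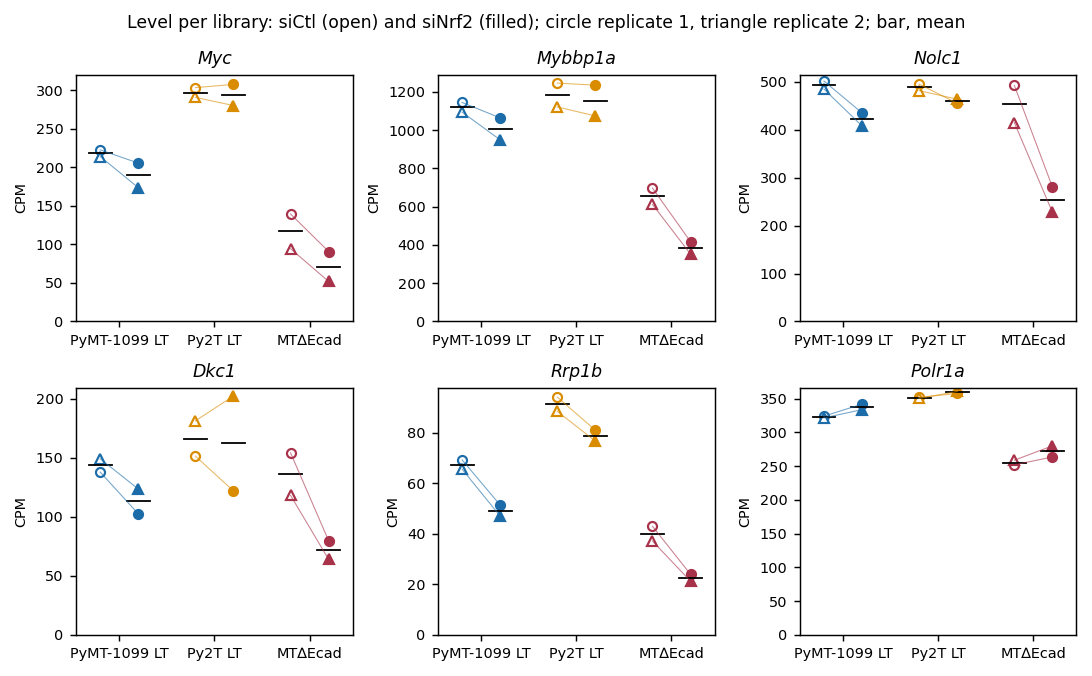
CPM is plotted in each of the 12 libraries for Myc, Mybbp1a, Nolc1, Dkc1, Rrp1b and Polr1a (open symbols siCtl, filled siNrf2, circles replicate 1, triangles replicate 2, black bars means, lines join the same replicate number). In the MT∆Ecad panels the filled symbols lie below both open ones for every gene but Polr1a, which goes from 252 and 259 to 264 and 280 CPM.

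Among the 6 genes of RNA polymerase I and its regulators, 3 fell in MT∆Ecad (Polr1b, Ddx21 and Mybbp1a) and 5 in the blocked fit. Mybbp1a, a nucleolar protein that binds Myb and takes part in rRNA synthesis, went from 697 and 611 CPM to 417 and 352 CPM there. The siNrf2 libraries were well below the siCtl libraries, at 58.8% of their mean (log2 fold change −0.77, SE 0.12, limma adjusted p 0.00367). In PyMT-1099 LT it went from 1144 and 1094 to 1064 and 949 CPM, and in Py2T LT from 1245 and 1121 to 1234 and 1074 CPM, where the groups overlapped. Polr1b, the second largest subunit of the polymerase, fell by 0.57 and Ddx21, a nucleolar RNA helicase, by 0.60 in MT∆Ecad. Rrn3, the factor that makes the polymerase competent to initiate (−0.35, limma adjusted p 0.0725), and Polr1c, a subunit shared with RNA polymerase III (−0.18, 0.238), passed in the blocked fit (0.00124 and 0.0322). Polr1a, the largest subunit, was the member that went the other way, by 0.09 (limma adjusted p 0.409). In the other lines too it did not fall, at 0.07 (PyMT-1099 LT) and 0.03 (Py2T LT), neither past the test.

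Of the 3 abundant nucleolar chaperones, Nolc1 fell and Ncl and Npm1 were called in the blocked fit. Nolc1, which shuttles snoRNPs between nucleolus and Cajal bodies, stood at 493 and 415 CPM in the siCtl and 281 and 228 CPM in the siNrf2 libraries of MT∆Ecad. It was at 502 and 485 against 435 and 408 CPM in PyMT-1099 LT, and at 495 and 482 against 455 and 464 CPM in Py2T LT. The groups did not overlap in any line, and the gap was widest in MT∆Ecad, where the siNrf2 mean was 56.0% of the siCtl mean (log2 fold change −0.84, SE 0.11, limma adjusted p 0.00194). Ncl, nucleolin, gave −0.62 (SE 0.36) and Npm1, nucleophosmin, −0.53 (SE 0.34) in MT∆Ecad, with limma adjusted p of 0.294 and 0.347 and blocked values of 0.00578 and 0.0228. Their replicates were far apart.

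The box C/D snoRNPs, which guide methylation of rRNA, had 2 of 3 members lower in MT∆Ecad. Nop56 fell by 0.61 (188.8 and 164.7 to 122.6 and 108.1 CPM, limma adjusted p 0.0038), and Fbl, the methyltransferase fibrillarin, by 0.43 (16.9 and 14.8 to 11.6 and 11.4 CPM, 0.0177). Nop58, the partner of Nop56, went from 255 and 193 to 159 and 120 CPM (−0.68, SE 0.32, limma adjusted p 0.191, blocked 0.00513). In PyMT-1099 LT Nop58 was at 275 and 319 CPM with siCtl and 184 and 286 CPM with siNrf2, and in Py2T LT at 187 and 255 against 161 and 306 CPM. In both of those lines its groups overlapped and replicate 2 was the higher library of each group.

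All 4 proteins of the box H/ACA snoRNPs, which turn uridine into pseudouridine, fell in MT∆Ecad. Dkc1, the pseudouridine synthase dyskerin, had the largest fall of any member there, from 154 and 118 CPM to 79.7 and 63.9 CPM (52.7% of the siCtl mean, log2 fold change −0.91, SE 0.23, limma adjusted p 0.0283). Its call was lost without siCtl replicate 1, siNrf2 replicate 1 or siNrf2 replicate 2 of MT∆Ecad (limma adjusted p 0.207, 0.0556 and 0.198). In PyMT-1099 LT Dkc1 was at 138 and 149 CPM in siCtl and 103 and 124 CPM in siNrf2, and in Py2T LT at 151 and 181 against 122 and 202 CPM, the latter overlapping. The structural partners Nhp2 (−0.80), Gar1 (−0.67) and Nop10 (−0.32) completed the group, and Nop10 missed the threshold with edgeR (adjusted p 0.0829).

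The small subunit processome, the large particle that processes the 18S part of the precursor, had 5 of 10 members lower in MT∆Ecad and all 10 in the blocked fit. Heatr1 (−0.74), Wdr75 (−0.67), Rrp12 (−0.57), Utp18 (−0.50) and Utp4 (−0.47) were the 5, and Rrp12 missed the threshold with edgeR (adjusted p 0.0566). Wdr43 had the largest change of the group over the 3 lines, and in MT∆Ecad went from 166 and 119 CPM to 104 and 72.2 CPM (−0.69, SE 0.30, limma adjusted p 0.143, blocked 0.00442). It stood at 195 and 209 against 134 and 183 CPM in PyMT-1099 LT, without overlap, and at 171 and 213 against 131 and 235 CPM in Py2T LT, with overlap. Utp20, Rrp9, Noc4l and Nop14 lay between −0.61 and −0.29 in MT∆Ecad.

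Of the 3 factors of late 40S maturation, limma and edgeR called 0 in MT∆Ecad, and the blocked fit 2. Unadjusted limma p-values were 0.011 for Tsr1, 0.0365 for Ltv1 and 0.0941 for Pno1. Ltv1, a protein of the pre-40S particle, went from 61.4 and 48.9 to 43.1 and 38.1 CPM (−0.42, limma adjusted p 0.129, blocked 0.0232). Its levels were 52.1 and 52.7 against 42.5 and 48.4 CPM in PyMT-1099 LT and 83.5 and 85.1 against 66.0 and 96.2 CPM in Py2T LT, where siNrf2 replicate 2 was above both siCtl libraries. The GTPase-like factor Tsr1 gave −0.44 (blocked adjusted p 0.00154) and Pno1, a KH-domain protein, −0.27.

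For the 60S subunit, 2 of the 3 proteins of the PeBoW complex (Pes1, Bop1 and Wdr12, which act together on the 5.8S and 28S part of the precursor) and 8 of 12 further factors fell in MT∆Ecad, and all 3 and all 12 did in the blocked fit. Wdr12 went from 64.2 and 56.2 to 43.1 and 36.8 CPM there (−0.58, SE 0.13, limma adjusted p 0.0141). In PyMT-1099 LT it was at 70.0 and 65.4 against 63.1 and 58.7 CPM, and in Py2T LT at 68.9 and 74.2 against 63.5 and 77.9 CPM, so that its groups overlapped in Py2T LT alone of the 3 lines. Pes1 fell by 0.48 and Bop1 gave −0.30 (limma adjusted p 0.165, blocked 0.00408). Rrp1b, a nucleolar protein of the 60S pathway, had the lowest limma adjusted p of any member. It stood at 43.0 and 37.1 CPM with siCtl and 24.0 and 21.2 CPM with siNrf2 in MT∆Ecad (−0.80, SE 0.10, 0.00172), at 69.3 and 65.6 against 51.4 and 47.0 CPM in PyMT-1099 LT and at 94.2 and 88.6 against 81.1 and 76.7 CPM in Py2T LT. In each line both siNrf2 libraries lay below both siCtl libraries. The other 60S factors called in MT∆Ecad were Nop2, an rRNA methyltransferase (−0.74), Rrs1 (−0.67), Noc2l (−0.65), the helicase Ddx18 (−0.63), Ebna1bp2 (−0.58), the methyltransferase Ftsj3 (−0.51) and Nop16 (−0.48). Gnl3 (nucleostemin, a GTP-binding protein), the large ATPase Mdn1, Nip7 and Noc3l ran from −0.66 to −0.33 without a call.

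In the 2 lines of MMTV-PyMT origin the fold changes of the same genes were nearer to 0. In PyMT-1099 LT limma called 0 members lower or higher, beside 0.184% and 0.336% of all tested genes, as did edgeR and DESeq2, and 3 members were lower at an unadjusted p under 0.05 (Rrp1b, Ebna1bp2 and Fbl), a share near the 3.86% of all tested genes. The median was −0.13 and 40 of 45 members were below 0, beside 50.2% of all tested genes. The blocked fit called 5 lower, beside 3.95% of all tested genes: Rrp1b (−0.45), Gar1 (−0.29), Ebna1bp2 (−0.29), Heatr1 (−0.28) and Nolc1 (−0.23). Both siNrf2 libraries lay below both siCtl libraries for 20 members, beside 17.1% of all tested genes. In Py2T LT 0 members passed in either direction with limma (beside 0.0960% lower and 0.0560% higher), edgeR, DESeq2 or the blocked fit (beside 0.672% lower), and 0 were lower at an unadjusted p under 0.05, beside 3.84% of all tested genes. The median there was −0.01 (0.01 after TMM rescaling), within a range from −0.21 (Rrp1b) to 0.13 (Nop16). Nolc1, Gar1, Ebna1bp2 and Rrp1b were the 4 members without overlap and lower in Py2T LT, beside 15.9% of all tested genes. For 6 members, Polr1a, Polr1b, Rrn3, Utp4, Nop16 and Nip7, both siNrf2 libraries lay above both siCtl libraries there, beside 7.63% of all tested genes, and none of the 6 passed the test.

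On the average of the 3 lines, weighted equally, 11 members fell and 0 rose by limma, beside 6.26% lower and 5.99% higher of all tested genes. They were Rrp1b (−0.49), Nolc1 (−0.38), Gar1 (−0.37), Heatr1 (−0.37), Wdr75 (−0.34), Ebna1bp2 (−0.34), Nhp2 (−0.33), Mybbp1a (−0.32), Ddx18 (−0.28), Nop56 (−0.24) and Fbl (−0.23), and all 11 were also called in MT∆Ecad. The blocked fit called 39 lower, beside 21.0% of all tested genes. Myc gave −0.32 on the average (SE 0.14, limma adjusted p 0.177, blocked 0.00163). The limma count fell to 3 without siCtl replicate 1 of PyMT-1099 LT, siCtl replicate 1 of MT∆Ecad or siNrf2 replicate 2 of MT∆Ecad. It fell to 4 without siNrf2 replicate 2 of PyMT-1099 LT, and to 6 without siCtl replicate 2 of PyMT-1099 LT or either siCtl library of Py2T LT, and rose to 21 without siNrf2 replicate 2 of Py2T LT. Nolc1, Ebna1bp2 and Rrp1b were the 3 called in each of these 12 fits.

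Whether the siNrf2 effect on the members differed between the lines depended on the block. The limma F test called 0 of 45 members, beside 2.18% of all tested genes. DESeq2 called 1 and edgeR 0, and 19 members were under 0.05 unadjusted, beside 15.0% of all tested genes. The blocked fit called 32, beside 19.0% of all tested genes. Nolc1 had the smallest p (F test adjusted p 0.0709, blocked 0.00185). Pair by pair, MT∆Ecad minus PyMT-1099 LT had 0 members called lower by limma (beside 0.648%), 0 by edgeR and DESeq2, 18 at an unadjusted p under 0.05 (beside 6.77%) and 28 in the blocked fit (beside 7.43%). MT∆Ecad minus Py2T LT had 3 called lower by limma (beside 0.960%): Nolc1 (−0.75), Nop56 (−0.61) and Nop16 (−0.61), with 36 in the blocked fit (beside 9.49%), 6 with DESeq2 and 0 with edgeR. These 3 calls rested on all libraries: Nop56 and Nop16 were lost in each of the 12 fits that left out 1 library, and Nolc1 in the 10 other than those without siCtl replicate 2 or siNrf2 replicate 1 of MT∆Ecad. For Myc these differences were −0.53 (95% interval −1.31 to 0.26) and −0.72 (−1.50 to 0.07), and their blocked adjusted p were 0.0184 and 0.0045. No share of all tested genes is given for edgeR or DESeq2, so their counts of members stand without a background.

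The members varied between replicates in a way that was shared within a line. In MT∆Ecad replicate 2 was the lower library for nearly every member: 3 of 45 were higher in replicate 2 of siCtl and 2 of 45 in replicate 2 of siNrf2, with median differences of −0.21 and −0.24 on the log2 scale, while the medians of all tested genes were 0.01 and 0. In Py2T LT siNrf2, Npm1 was 1.01 higher in replicate 2 than in replicate 1, Ncl 0.92, Nop58 0.92, Gnl3 0.85, Wdr43 0.84 and Dkc1 0.73. Ncl, Nop58, Gnl3, Wdr43 and Dkc1, but not Npm1, are among the 7 members (hosts) with annotated small nucleolar RNA genes within their span on the same strand. The others of the 7 are Nop56 and Tsr1. Hosts made up 15.6% of the members, against 1.86% of 12070 tested genes with an annotation. In Py2T LT siNrf2 the 7 hosts had a median replicate difference of 0.84 (range 0.07 to 0.92) and the 38 other members one of 0.02 (−0.37 to 1.01), so that the ranges overlapped. In MT∆Ecad siNrf2 the medians were −0.40 (−0.52 to −0.18) and −0.21 (−0.80 to 0.09). The part of this replicate difference in the siNrf2 comparison was not tested beyond the block.

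**Figure D3:**
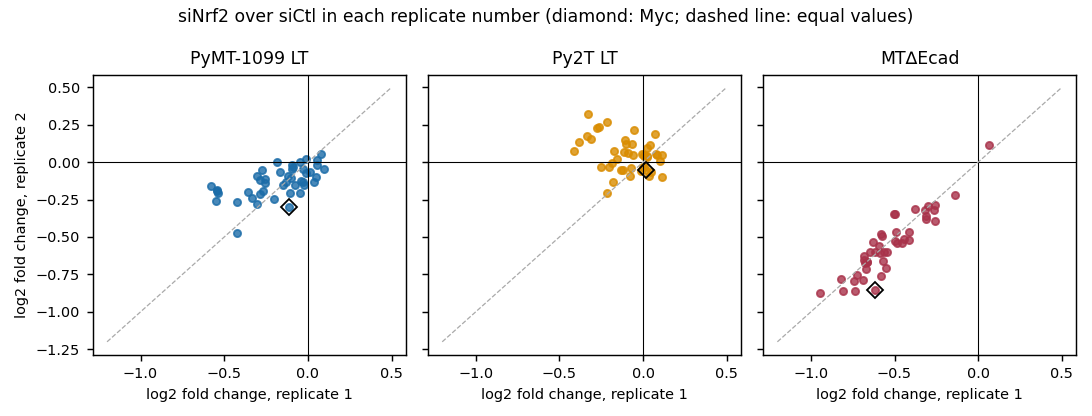
For each of the 45 members the log2 fold change of siNrf2 over siCtl in replicate 1 (x axis) is plotted against that in replicate 2 (y axis), by line. A diamond marks Myc and the dashed line equal values. In MT∆Ecad 44 members are below 0 in both pairs and lie along the line, in PyMT-1099 LT 35 are and in Py2T LT 10. The share of all tested genes below 0 in both pairs was not counted.

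Within replicate numbers, the MT∆Ecad change was alike in both pairs. Myc gave −0.61 in pair 1 and −0.85 in pair 2 there, −0.12 and −0.30 in PyMT-1099 LT, and 0.02 and −0.05 in Py2T LT.

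In the siCtl libraries the limma F test called 32 of 45 members as different between the lines, a share near the 73.5% of all tested genes and so no result about the members. MT∆Ecad had the lowest levels of many: 20 members were lower and 1 higher than in PyMT-1099 LT (beside 30.6% and 27.0% of all tested genes) and 28 lower and 2 higher than in Py2T LT (beside 28.6% and 25.9%). Py2T LT had 5 lower and 11 higher than PyMT-1099 LT (beside 27.5% and 28.1%). Myc was highest in Py2T LT and lowest in MT∆Ecad. The log2 difference was −1.36 for MT∆Ecad minus Py2T LT (limma adjusted p 0.00117) and −0.92 for MT∆Ecad minus PyMT-1099 LT (0.00998), while Py2T LT minus PyMT-1099 LT, at 0.44, did not pass (0.157). No blocked value is given for these differences, because the block takes the spread between replicates out of a comparison of lines. Rrp1b (−1.17), Utp20 (−1.04) and Mybbp1a (−0.85) followed Myc among the members lower in MT∆Ecad than in Py2T LT.

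**Figure D4:**
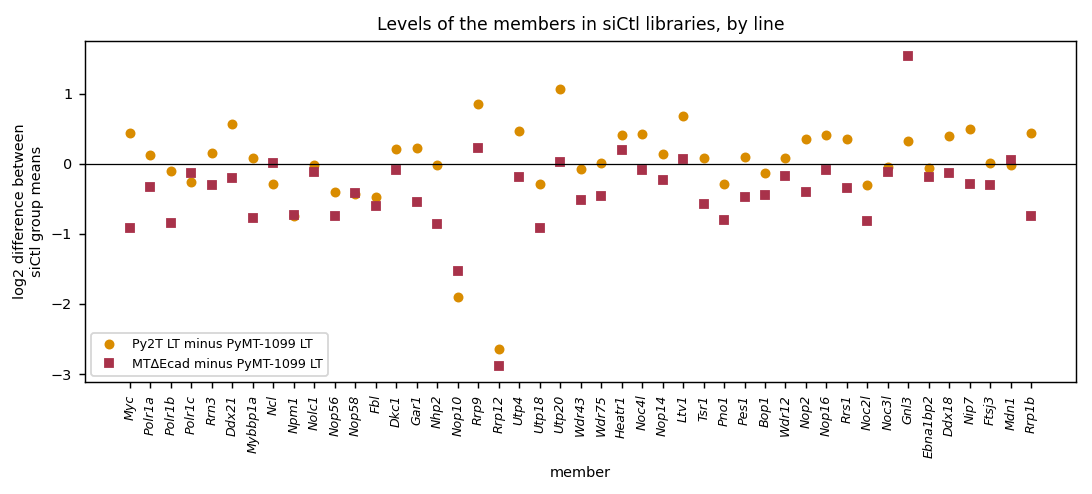
The difference between siCtl group means on the log2(CPM + 1) scale is plotted for each member, Py2T LT minus PyMT-1099 LT (circles) and MT∆Ecad minus PyMT-1099 LT (squares). Most points lie within 1 log2 unit of 0, with Rrp12 and Nop10 far below in both and Gnl3 above in MT∆Ecad.

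Rrp12, Nop10 and Gnl3 stood apart from the other members between lines, and were chosen for description after their values were seen. Rrp12, a HEAT-repeat protein of pre-ribosome export (chr19:41859483-41896153, GRCm38), was at 995 to 1149 CPM in the 4 PyMT-1099 LT libraries and at 86.9 to 187 CPM in the 8 others, with no overlap. Many of its neighbours had the same pattern: of 25 tested genes within 1000000 bases, 14 were more than 2 log2 units higher in PyMT-1099 LT siCtl than in both other lines, against 3.41% of all tested genes. Among them, Zdhhc16 was at 1551 and 1418 CPM in PyMT-1099 LT siCtl and between 93.4 and 109 CPM in the other siCtl libraries. Exosc1, a subunit of the RNA exosome, was at 524 and 487 CPM against 57.7 to 71.1 CPM. Morn4, amid these genes, went the opposite way, at 1.04 and 1.74 CPM against 23.1 to 24.8 CPM. The siNrf2 effect on Rrp12 in PyMT-1099 LT was −0.04 (SE 0.15).

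**Figure D5:**
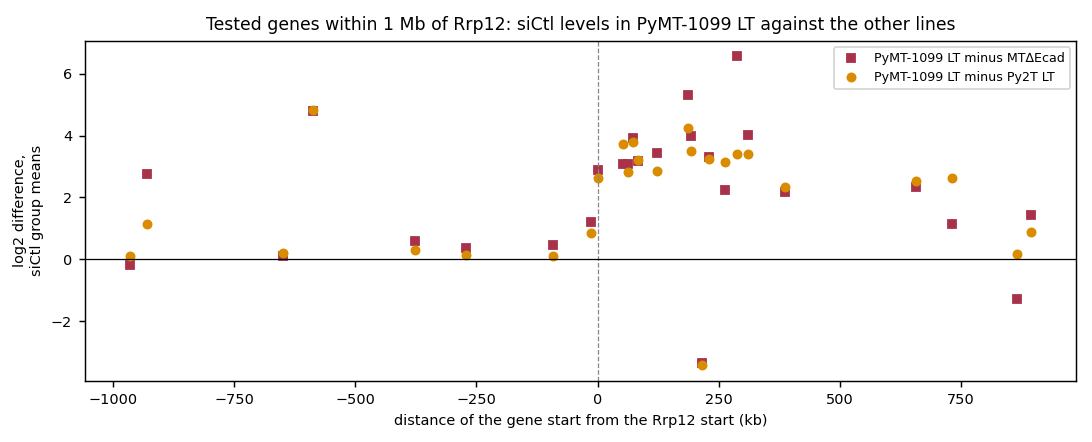
For tested genes within 1000000 bases of the Rrp12 start (dashed line), the log2 difference of siCtl group means between PyMT-1099 LT and each other line is plotted against the distance of the gene's start. Most genes just to the right of Rrp12 lie above 2, and Morn4 lies below −3.

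Nop10 was at 132 to 150 CPM in PyMT-1099 LT and 36.4 to 49.2 CPM in the other libraries. Of its 7 tested neighbours, 2 were more than 1 log2 unit higher in PyMT-1099 LT than in both other lines (Lpcat4 and Nutm1), against 7.17% of all tested genes. Gnl3 was at 213 and 281 CPM in MT∆Ecad siCtl and 77.0 to 120 CPM in the other siCtl libraries, and 9 of its 26 tested neighbours were more than 1 log2 unit higher in MT∆Ecad than in both others, against 7.22%. Glt8d1 and Pbrm1, which flank Gnl3, are among the 9. The annotated spans of Glt8d1 and Gnl3 overlap, and how reads in the overlap were counted is not given.

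Other genes of the same pathways were read as lists beside the members. Of 38 further small subunit processome and 40S factors, 15 fell and 0 rose in MT∆Ecad (7 and 0 on the average, 26 and 22 lower in the blocked fit). Their MT∆Ecad median was −0.36. Utp15 (average −0.57) and the methyltransferase Dimt1 (−0.54) had the largest called changes. Of 36 further 60S factors, 13 fell and 0 rose in MT∆Ecad (6 and 0 on the average, 25 and 22 lower in the blocked fit), among them Lyar (average −0.44) and Wdr74 (−0.30), and the MT∆Ecad median was −0.35. The 12 subunits and cofactors of the RNA exosome, which trims rRNA ends, had 6 lower and 0 higher in MT∆Ecad (4 and 0 on the average, 9 and 11 lower in the blocked fit), among them Exosc7 (−0.42) and Exosc8 (−0.34). These shares were above the background of 8.42% lower given for MT∆Ecad. The lists were chosen with earlier results of these data known, so the excess is a description and not a separate test.

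Further RNA polymerase I factors had 1 of 8 lower (Polr1e, average −0.32, 4 lower in the blocked fit), and RNA polymerase III subunits had 0 lower and 1 higher of 14 in MT∆Ecad (0 of 14 on the average, 4 lower in the blocked fit). Cytosolic ribosomal proteins, the structural parts of the subunits, had 4 of 48 lower and 0 higher in MT∆Ecad, a share near the background of 8.42%. The blocked fit called 15 lower there, beside 21.2% of all tested genes. Their MT∆Ecad median was −0.12, and 43 of 48 were below 0, beside 48.2% of all tested genes. Rps7 (−0.26) was the 1 called on the average, where the blocked fit called 9. Noncoding snoRNA host transcripts had 4 of 13 lower in MT∆Ecad and 11 in the blocked fit, and Snhg17 (−0.35) was called on the average.

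The partners and antagonists of Myc had 0 lower and 2 higher of 11 in MT∆Ecad and on the average (2 lower with 3 and 4 higher in the blocked fit). Among all tested genes 8.89% were higher in MT∆Ecad and 5.99% on the average. The genes that rose were Mxd4 (average 0.75, MT∆Ecad 1.38) and Mxd1 (0.51 and 0.72), which pair with Max and repress E-box genes. Yet 6 of the 11 were below 0 in MT∆Ecad, among them Mxd3 (−0.35, limma adjusted p 0.221, blocked 0.00886) and Mxi1 (−0.12, limma adjusted p 0.399). Max itself was at −0.23 in MT∆Ecad (limma adjusted p 0.0924, blocked 0.0102). Other textbook Myc targets had 9 of 15 lower and 0 higher in MT∆Ecad (6 and 0 on the average, 13 and 11 lower in the blocked fit), and their MT∆Ecad median was −0.52. Hspd1, a mitochondrial chaperonin (average −0.95), and the transcription factor Tfap4 (−0.51) changed the most. Sensors of nucleolar stress had 1 of 7 lower, Trp53 (average −0.27), with 3 lower in the blocked fit, and Cdkn1a was at 0.04 in MT∆Ecad (limma adjusted p 0.916).

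Calls were also counted by sequence feature. With an E-box in the promoter window, 5 of 12 members were lower in MT∆Ecad (median −0.49), and without one 17 of 27 were (median −0.61). The blocked fit called 11 of the 12 and 26 of the 27. Among all tested genes, with or without an E-box, 8.42% were lower in MT∆Ecad by limma and 21.2% in the blocked fit. Shares split by E-box are not given for all tested genes. An earlier analysis of these data named the 7-mers ACCATTT and GAGAAGT in 3′ untranslated regions, searched on the transcript's strand. Either was found in 7 of 45 members (15.6%), fewer than the 23.9% of 11961 tested genes. ACCATTT was in Ncl, Nolc1, Nop58 and Rrp1b and GAGAAGT in Ltv1, Wdr12 and Ebna1bp2. One site each in Nolc1, Rrp1b and Wdr12 is shown, as examples of both 7-mers in members called in MT∆Ecad, with the 7-mer in capitals (GRCm38).
Nolc1 (chr19:46085084-46085112, plus strand): aactaagcaggACCATTTtgtcttgaagt
Rrp1b (chr17:32062201-32062229, plus strand): aacaacctcacACCATTTtcacaatggcc
Wdr12 (chr1:60072342-60072370, minus strand): tgtgttgaacaGAGAAGTctttattttat
The 7 members had a median of −0.62 in MT∆Ecad (4 called, 7 in the blocked fit) and the 38 others one of −0.53 (21 called, 36 in the blocked fit). On the average 3 of the 7 and 8 of the 38 were called (7 and 32 in the blocked fit), and in Py2T LT the medians were −0.08 and −0.01. Because the 7-mers were named from these same data, this split is a description and not a separate test. The part of the 7-mers in the siNrf2 comparison was not tested.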

How the data were processed

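Per the submitters' processing notes, reads were aligned with STAR to mm10. The counting tool, annotation and strand setting are not given in the sources used here. The authors deposited CPM values (reads per 1000000) per Entrez gene ID for 12 libraries. Of the values, 100% were whole reads within 0.01 read once multiplied by a library's depth, so that reads were recovered for edgeR 4.0.16 and DESeq2 1.42.0. Of 24454 IDs, 24374 matched a symbol and 80 did not.

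The 12502 genes that reached 1 CPM in 2 or more libraries entered limma 3.58.1 in R 4.3.3 on log2(CPM + 1), with a trend, a mean per group and Benjamini-Hochberg adjustment over all of them, two-sided, threshold 0.05, 6 residual degrees of freedom. On the average edgeR called 10 and DESeq2 11 members lower, and in MT∆Ecad 23 and 25. Deviations of siCtl and siNrf2 libraries with the same replicate number correlated across genes in each line (r 0.778, 0.846 and 0.625), so the numbers were taken to pair them. A blocked fit (3 residual degrees of freedom) is given where it changes a call or a count by more than 1.5 times, except for siCtl differences between lines. On simulated counts for the MT∆Ecad contrast over 12502 genes, 19 of 100 genes changed 1.5-fold and 77 of 100 changed 2-fold were called, with 10 false calls. Far fewer genes were changed there than the 1053 called lower and 1111 called higher in the real contrast. Libraries were also drawn without shared replicate differences, so these rates do not carry over to the real data.

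The members and gene lists were chosen with earlier results of these data known. Values per library are given for Myc, for the member of each role group with the largest average change, and for the member with the smallest p of the F test between lines. Of each further list the text names up to 2 called genes with the largest average change. Other members are given by their fold changes, Nop56, Polr1a, Rrp12, Nop10 and Gnl3 with levels too, after their values were seen. Promoters are RefSeq windows, with entries for 39 of 45 members.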

Additional observations from a re-analysis of the deposited data

Results flagged for a closer look

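For 3 members a test of the difference itself found that the siNrf2 effect was lower in MT∆Ecad than in Py2T LT. The differences on the log2 scale were −0.7483 for Nolc1 (SE 0.16, limma adjusted p 0.0389, blocked 0.000913, edgeR 0.0880), −0.6056 for Nop56 (SE 0.13, limma adjusted p 0.0463, blocked 0.00221, edgeR 0.105) and −0.6054 for Nop16 (SE 0.14, limma adjusted p 0.0493, blocked 0.00302, edgeR 0.128). With edgeR none of the 3 passed. Leaving out 1 library at a time, chosen for these differences after seeing the data, gave limma adjusted p of 0.0252 to 0.159 for Nolc1, 0.0504 to 0.186 for Nop56 and 0.0553 to 0.196 for Nop16. Nolc1 passed in 2 of the 12 fits, those without siCtl replicate 2 or siNrf2 replicate 1 of MT∆Ecad (0.0424 and 0.0252), and Nop56 and Nop16 in 0.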

How the results depend on the processing

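Counts of members called lower moved by more than 1.5 times in these cases. With the replicate number as a block, the count was 39 on the average, 5 in PyMT-1099 LT and 43 in MT∆Ecad, and 32 members differed between lines in their siNrf2 effect, where DESeq2 called 1. For MT∆Ecad minus Py2T LT the 3 members called lower became 36 with the block, 6 with DESeq2 and 0 with edgeR, and for MT∆Ecad minus PyMT-1099 LT the 0 became 28 with the block. Fitted on its 4 libraries alone, MT∆Ecad had 5 lower. Leaving out 1 library at a time gave 3 to 21 on the average, 5 to 29 in MT∆Ecad, 0 to 0 for the difference between lines and for each MMTV-PyMT line, and 27 to 34 for the siCtl levels. The lone library left in a group was then assumed to vary like the other groups. Pseudocounts of 0.5 and 5, no filter, a filter of 5 CPM, TMM rescaling, edgeR and leaving out the members with a 7-mer kept the counts on the average, in each line, for the F test between lines and for the siCtl levels within 1.5 times, and no member changed sign on the average or in MT∆Ecad. For siCtl differences between lines no count is given with the block, because a block within lines takes out the spread between replicates that such a difference is set against. Under TMM, edgeR and DESeq2 scaling the median of all tested genes in MT∆Ecad lay between 0.01 and 0.02. With 2 replicates a missed threshold shows no absence of change. A change of 1.5-fold was seldom recovered in simulated counts, but their setting differs from the real data, so that rate does not carry over.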
